A study of Mus musculus with 10 samples.

Results

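The genes described here are the mouse zinc finger genes of the BTB and SCAN families, taken as every protein-coding gene of the RefSeq gene table of GRCm38.p6 (the assembly whose coordinates are those of mm10) with a symbol that starts with Zbtb, Zscan or Zkscan and goes on with a digit. The rule found 68 of 21883 protein-coding genes on the autosomes and sex chromosomes. Of these, 41 Zbtb genes form the BTB group and 27 genes, 16 Zscan and 11 Zkscan, form the SCAN group. A further 6 matching symbols were left out because the table does not class them as protein coding, 5 of them Zscan4 pseudogenes. The rule goes by name alone, and it takes in Zbtb8os, a neighbour of Zbtb8a that encodes archease, a cofactor of the tRNA ligase complex with no BTB domain.

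All samples were male mouse embryonic stem cells derived from 129 mice, the cultured counterpart of the pluripotent inner cell mass, grown without feeders in serum with LIF. RNA bound by YTHDC1 came from cells with a Halo-Ythdc1 knock-in (1 RNA immunoprecipitation, RIP, and 1 input, total RNA), and m6A was mapped on polyA RNA in Mettl3-KO cells (2 precipitates and 2 inputs) and in Mettl3-WT cells (2 and 2). The sources used here do not say how the Mettl3 knockout was made or whether it is a single clone. The cell type label of the Mettl3-KO samples reads wild type, and the description of 1 of the 2 Mettl3-KO precipitates names the wild-type peak list. The data are 3 deposited lists of peak positions, with 30992 YTHDC1 RIP peaks, 6764 knockout m6A peaks and 12368 wild-type m6A peaks. They carry no height, read count, strand or value per replicate, so nothing below could be set against a spread between replicates, no test was made, and the depth behind a peak is unknown. Exact Clopper-Pearson 95% intervals are given for shares of genes or peaks and cover counting only. Those over peaks treat peaks of the same gene as independent, so they can be too narrow. Peak lists do not measure expression. As a check of the cell type, 6 of 8 pluripotency genes had a RIP peak, 7 a knockout and 6 a wild-type m6A peak, against 2, 1 and 1 of 8 genes of other lineages, where Vim held both m6A peaks.

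BTB zinc finger proteins carry at their N terminus a BTB domain, with which they form dimers and bind corepressors such as NCOR1 and BCOR, and at their C terminus C2H2 zinc fingers that bind DNA. SCAN zinc finger proteins pair through the leucine-rich SCAN domain, and many Zkscan proteins also have a KRAB domain, which recruits the corepressor TRIM28. m6A is written on nascent messenger RNA by the METTL3 complex, lies mostly in long internal exons and near stop codons, and is read in the nucleus by YTHDC1. In C2H2 zinc finger genes the fingers are often encoded in a single long exon.

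Most BTB and SCAN genes carried an m6A peak in wild-type cells, and a smaller share carried a peak in the knockout list. A peak was counted for a gene when its midpoint lay in the gene's span. A knockout m6A peak was found in 19 of the 68 genes (27.9%, 17.7 to 40.1%) and a wild-type peak in 55 (80.9%, 69.5 to 89.4%). Over all 21883 protein-coding genes these shares were 18.2% and 30.3%. Only the knockout list held a peak in 4 of the 68 genes (5.88%, with 6.66% over all protein-coding genes), only the wild-type list in 40 (58.8%, with 18.8% over all), and both lists in 15 (22.1%, with 11.5% over all). YTHDC1 RIP peaks were found in 39 genes (57.4%, 44.8 to 69.3%), with 42.2% over all protein-coding genes. No peak in any list was found in 6 genes (8.82%, with 48.3% over all), namely Zbtb16, which encodes PLZF, a factor of innate-like lymphocytes and of spermatogonial stem cells, Zbtb42, Zscan4b, Zkscan2, Zkscan4 and Zkscan7.

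At the median, the spans were alike in length. The median span was 17167 bp for the 68 genes and 17170 bp for all protein-coding genes. With all protein-coding genes weighted to the same 4 classes of span length as the 68 genes, the shares with a peak were 42.5% for RIP, 19.5% for the knockout and 31.5% for the wild-type m6A list. For comparison, 397 protein-coding genes named Zfp followed by a digit were counted. Taken by name alone, they include some BTB and SCAN genes with other symbols, such as Zfp131 and Zfp24. They had a RIP peak in 58.7% (53.7 to 63.6%), a knockout peak in 15.4% (12 to 19.3%) and a wild-type peak in 65.5% (60.6 to 70.2%). The RIP share of the 68 genes was thus no higher than that of the Zfp genes. The intervals of the 68 genes and of the Zfp genes overlap in all 3 lists, in the wild-type list only between 69.5 and 70.2%. The lists hold no expression values, so the part of expression in these shares was not tested.

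**Figure D1:**
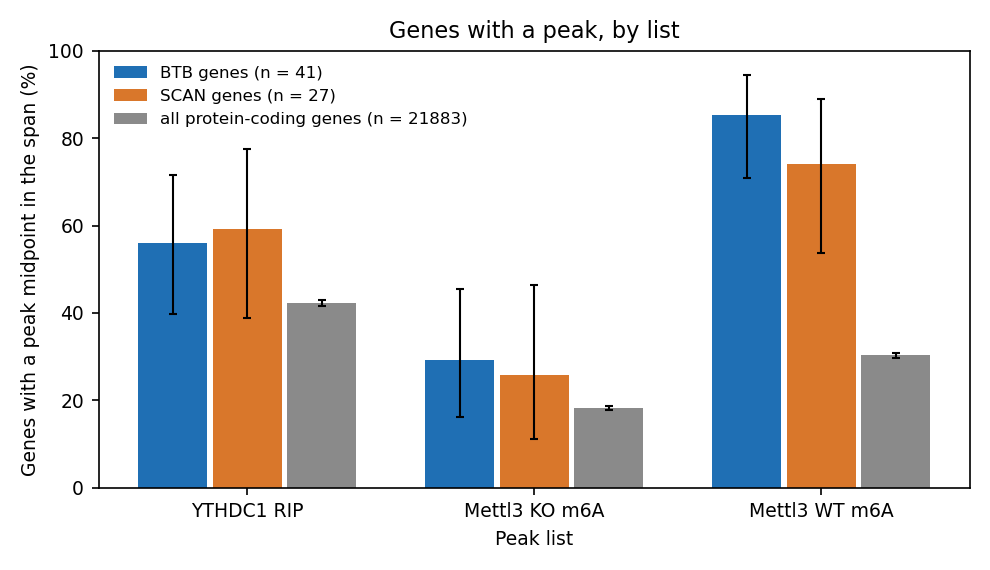
Share of genes with at least 1 peak midpoint in the span (percent), for the YTHDC1 RIP, Mettl3-KO m6A and Mettl3-WT m6A lists. Bars stand for 41 BTB genes, 27 SCAN genes and 21883 protein-coding genes, and error bars for exact 95% binomial intervals. In the wild-type m6A list both groups stand far above the 30.3% of all protein-coding genes, and the intervals of the BTB and SCAN groups overlap in every list.

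The shares of the BTB and SCAN groups had overlapping intervals in all 3 lists. RIP peaks lay in 23 of 41 BTB genes (56.1%, 39.7 to 71.5%) and in 16 of 27 SCAN genes (59.3%, 38.8 to 77.6%), a difference (BTB minus SCAN) of -3.16 percentage points. Knockout m6A peaks lay in 12 BTB genes (29.3%, 16.1 to 45.5%) and in 7 SCAN genes (25.9%, 11.1 to 46.3%), a difference of 3.34 points. Wild-type m6A peaks lay in 35 BTB genes (85.4%, 70.8 to 94.4%) and in 20 SCAN genes (74.1%, 53.7 to 88.9%), a difference of 11.3 points. Within the SCAN group 13 of 16 Zscan and 7 of 11 Zkscan genes had a wild-type peak. Of the 7 SCAN genes without one, 3 are copies of Zscan4, and without the 4 Zscan4 copies the wild-type share of SCAN genes was 82.6%. With peaks above the median width of their list alone, 29.3% of BTB and 37% of SCAN genes had a RIP peak, and 14.6% of BTB and 3.7% of SCAN genes a knockout peak. With 41 and 27 genes, overlapping intervals do not show that the groups are alike.

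The order of BTB and SCAN genes in wild-type peak density depended on how it was averaged. Summed over all spans, BTB genes had 3.84 wild-type m6A peaks per 100 kb (81 peaks) and SCAN genes 8.9 (41 peaks). The median gene had 9.45 per 100 kb in the BTB group and 6.88 in the SCAN group, so the order turned. The spans of the BTB group reach from 2309 bp in Zbtb12 to 758704 bp in Zbtb20, a gene with no wild-type m6A peak, whereas the longest SCAN span is 54715 bp. Without Zbtb20, a choice made after seeing the data, BTB genes had 5.98 wild-type peaks per 100 kb. Over all protein-coding genes the summed density was 1.14 wild-type peaks per 100 kb. Over the 397 Zfp genes it was 4.44, with 0.641 knockout and 3.65 RIP peaks per 100 kb. That wild-type sum is above the 3.84 of the BTB group but below its 5.98 without Zbtb20. The median Zfp gene had 4.64 wild-type peaks per 100 kb, below the medians of both groups. Summed over spans, knockout peaks numbered 0.9 per 100 kb in BTB and 2.39 in SCAN genes, with 0.627 over all protein-coding genes, and RIP peaks 2.65 and 5.86, with 2.13 over all. The median gene had 0 knockout peaks per 100 kb in both groups, and 1.45 RIP peaks per 100 kb in BTB and 4.53 in SCAN genes.

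**Figure D2:**
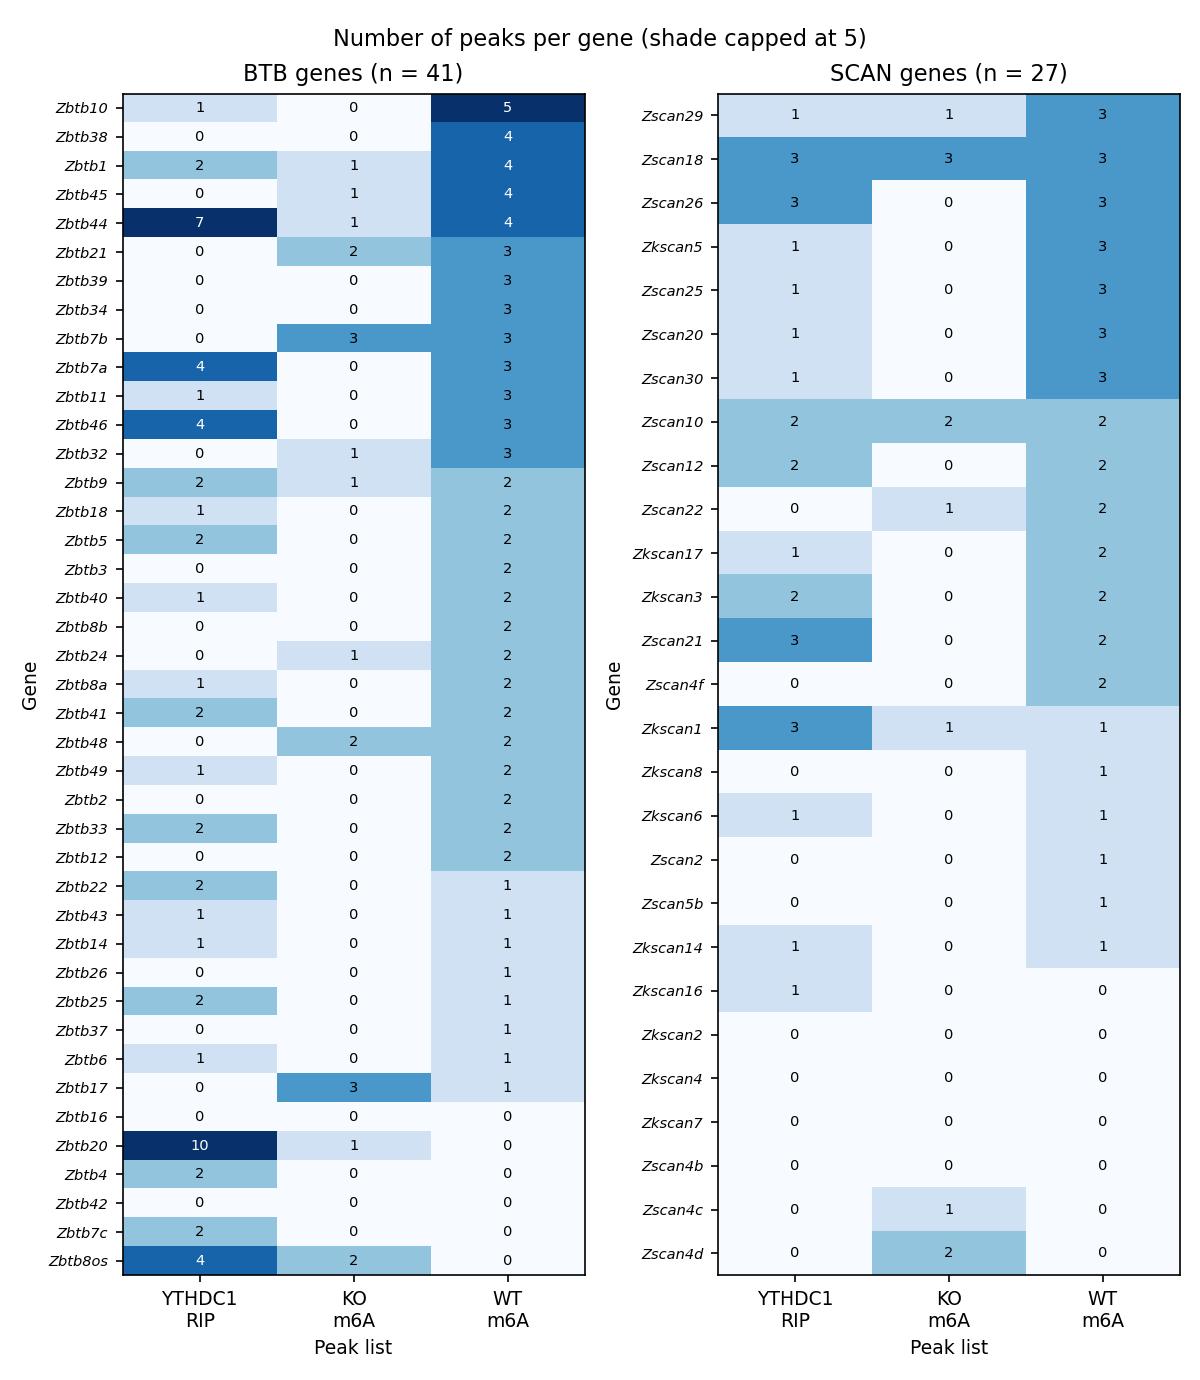
Number of peaks with a midpoint in each gene's span, for the YTHDC1 RIP, Mettl3-KO m6A and Mettl3-WT m6A lists. Each row is a gene, ordered by its number of wild-type m6A peaks and then by its widest wild-type peak, and the shade is capped at 5 peaks. The wild-type column is filled in 35 of 41 BTB and 20 of 27 SCAN genes, while the knockout column is empty in 49 of the 68 genes.

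Wild-type m6A peaks in these genes were wide. Their median width was 550 bp over 122 peaks, against 400 bp over all wild-type peaks in protein-coding genes, and 26 of the 122 (21.3%) reached 1000 bp, against 10% over all. A wild-type peak of at least 1000 bp, a bound chosen after the widths were seen, was found in 14 of 41 BTB genes (34.1%, 20.1 to 50.6%) and in 11 of 27 SCAN genes (40.7%, 22.4 to 61.2%), with 5.1% over all protein-coding genes. Among the Zfp genes the share was 15.1% (11.7 to 19%). Among the Klhl and Kbtbd genes, which encode BTB proteins without zinc fingers, it was 23.9% (12.6 to 38.8%). That interval overlaps those of the BTB and SCAN groups. The median width of wild-type peaks was 350 bp in the Zfp genes and 600 bp in the Klhl and Kbtbd genes. The widest of the 122 peaks lay in Zbtb22 on chromosome 17 (33916851 to 33919000), where a single peak of 2150 bp took up 68.3% of the 3150 bp span. Some other short genes were covered to a similar degree. Zbtb9 held peaks of 1750 and 400 bp (chromosome 17, 26973501 to 26975250 and 26975801 to 26976200), together 71.1% of its 3025 bp, and Zbtb3 held peaks of 450 and 1000 bp, together 61.3% of its 2365 bp. Others were covered less, such as Zbtb45 (4382 bp) to 38.8%, and Zbtb42 (4100 bp) and Zscan4b (4311 bp) had no wild-type peak. Zbtb12, the shortest of all, was covered to 30.3% by peaks of 400 and 300 bp. Over the spans of all 68 genes the share in wild-type peaks was 3.08%, against 0.583% over all protein-coding genes and 2.14% over the Zfp genes.

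Among longer BTB genes, Zbtb21 had a wild-type peak of 1950 bp (chromosome 16, 97949851 to 97951800) next to a second of 1150 bp, and Zbtb39 had 3 peaks in a row, the middle of them 1800 bp wide (chromosome 10, 127742351 to 127744150). Zbtb18, which encodes the repressor RP58 of cortical neuron development, had a peak of 1650 bp (chromosome 1, 177447051 to 177448700), as had Zbtb43 (chromosome 2, 33453551 to 33455200). Zbtb14 had a single peak of 1500 bp (chromosome 17, 69387501 to 69389000). Zbtb10, known from human cells for binding telomeric repeats, had the most wild-type peaks of any member, 5, with a widest of 1450 bp (chromosome 3, 9250701 to 9252150). Zbtb34 (1300 bp, chromosome 2, 33410801 to 33412100), Zbtb5 (1250 bp, chromosome 4, 44993251 to 44994500) and Zbtb26 (1250 bp, chromosome 2, 37435651 to 37436900) followed, the last 2 with the same width. In none of Zbtb10, Zbtb14, Zbtb18, Zbtb22, Zbtb26, Zbtb34, Zbtb39, Zbtb43 and Zbtb5 did the knockout list hold a peak. It held 2 in Zbtb21 and 1 in Zbtb9, which also have some of the widest wild-type peaks. Most genes lack a knockout peak, since 18.2% of all protein-coding genes had one.

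The readers of methylated DNA differed among themselves. Zbtb33, which encodes Kaiso, had wild-type peaks of 450 and 250 bp (chromosome X), and Zbtb38 had 4 within its last 10% (200, 150, 500 and 850 bp, chromosome 9), whereas Zbtb4 had none. All 3 lacked a knockout peak, and RIP peaks numbered 2 in Zbtb33, 0 in Zbtb38 and 2 in Zbtb4. Zbtb24, mutated in the human syndrome of immunodeficiency with centromeric instability, had wild-type peaks of 850 and 700 bp (chromosome 10, 41451251 to 41452100 and 41464351 to 41465050), the first of which covered its only knockout peak of 200 bp. Zbtb2 had wild-type peaks of 700 and 350 bp and no other.

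Several BTB genes are known for roles in blood and immune cells, and their peaks varied. Zbtb7a, which encodes LRF, a repressor of fetal globin genes in human, had 3 wild-type peaks (300, 800 and 800 bp, chromosome 10) and no knockout peak. Zbtb7b, which encodes ThPOK, the master factor of CD4 T cells, had 3 knockout peaks (250, 350 and 300 bp) and 3 wild-type peaks (650, 150 and 1000 bp). Of its knockout peaks, the 350 and 300 bp ones also lie in the span of the non-coding gene Gm15417. Zbtb17, which encodes the MYC partner MIZ1, had 3 knockout peaks close together (chromosome 4, 141463251 to 141464500) and a single wild-type peak of 250 bp further 3' (141466901 to 141467150). Zbtb32 had 1 knockout peak of 300 bp (chromosome 7, 30591751 to 30592050) and wild-type peaks of 350, 300 and 250 bp, the first of which also lies in the span of the non-coding gene Gm32082. Zbtb46, a marker of classical dendritic cells, had no knockout and 3 wild-type peaks, of which 2 also lie in the span of Zgpat. Zbtb20, a long gene that acts in hippocampus and liver, had 1 knockout peak of 250 bp and none in the wild-type list.

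In the SCAN group 11 genes had a widest wild-type peak between 1000 and 1300 bp. Zscan29 had the widest, of 1300 bp (chromosome 2, 121169801 to 121171100), followed at 1150 bp by Zscan10 (chromosome 17, 23609301 to 23610450), Zscan12 (chromosome 13, 21368701 to 21369850), Zscan18 (chromosome 7, 12809951 to 12811100) and Zscan26 (chromosome 13, 21444751 to 21445900). Zscan22 reached 1100 bp, and Zscan25, Zkscan1, Zkscan5 and Zkscan17 reached 1050 bp each, and Zkscan8 reached 1000 bp. Zscan10, known as a factor of the pluripotency network in mouse embryonic stem cells, had a second wild-type peak of 300 bp. Its 2 knockout peaks of 200 and 300 bp lay elsewhere in the gene. Zkscan3, known from human cells as a repressor of autophagy genes, had wild-type peaks of 700 and 300 bp and no knockout peak. Zscan21 had 2 narrow wild-type peaks (300 and 200 bp) and Zscan5b a single one of 500 bp. The 1150 bp peak of Zscan18 also lies in the span of Zfp329, that of Zscan26 in the span of the non-coding gene 4930470G03Rik, and all 3 wild-type peaks of Zscan30 also lie in the span of Zfp397. Without strand these cannot be assigned to either gene. Midpoints in a second coding or long non-coding gene were found for 4 of 30 knockout, 14 of 122 wild-type and 11 of 83 RIP peaks.

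**Figure D3:**
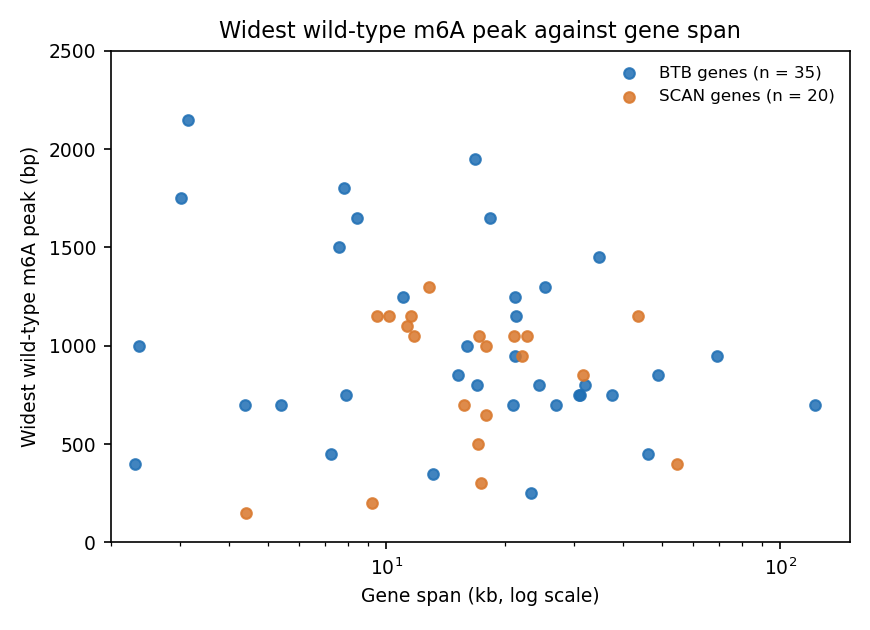
Width of the widest wild-type m6A peak (bp) against gene span (kb, log scale) for the 35 BTB and 20 SCAN genes with a wild-type peak. Each point is a gene. Short and long genes both hold peaks above 1000 bp, the widest 2150 bp in Zbtb22, and the SCAN genes do not pass 1300 bp.

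The knockout list held 30 peaks in the 68 genes, 19 in BTB and 11 in SCAN genes, with a median width of 225 bp and a widest of 450 bp in Zbtb45 (chromosome 7, 13009401 to 13009850). Of the 30, 10 (33.3%, 17.3 to 52.8%) overlapped a wild-type peak by at least 1 bp, against 21.4% of knockout peaks in all protein-coding genes. BTB genes held 9 of these 10, out of 19 knockout peaks (47.4%, 24.4 to 71.1%), and SCAN genes 1 out of 11 (9.09%, 0.23 to 41.3%), with overlapping intervals. The genes concerned were Zbtb1, Zbtb7b, Zbtb9, Zbtb21, Zbtb24, Zbtb32, Zbtb45, Zbtb48 and Zscan29, with 5.19% of all protein-coding genes holding such a pair. In the other direction, 10 of 122 wild-type peaks (8.2%, 4 to 14.6%) overlapped a knockout peak, near the 11.7% of wild-type peaks in all protein-coding genes. Zbtb48, which encodes the telomere protein TZAP, held both kinds of knockout peak. Its 250 bp knockout peak (chromosome 4, 152026851 to 152027100) lay inside the 750 bp wild-type peak (152026351 to 152027100), and its 150 bp knockout peak (152027501 to 152027650) had its midpoint 100 bp from the end of the span, outside any wild-type peak.

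The other knockout peaks lay as follows. In the BTB group Zbtb21 had 1 of 200 bp inside its widest wild-type peak (chromosome 16, 97950051 to 97950250) and 1 of 300 bp at its 5' end (97962351 to 97962650). Zbtb7b had 1 near its 3' end (chromosome 3, 89379801 to 89380050) and 2 at its 5' end (89393001 to 89393350 and 89393401 to 89393700). The peaks of Zbtb9 (chromosome 17, 26973501 to 26973700) and Zbtb24 (chromosome 10, 41451801 to 41452000) each lay wholly inside a wild-type peak. That of Zbtb44 lay at the first 1.69% of the span, far from its 4 wild-type peaks. In the SCAN group Zscan10 had 1 at its 5' end (chromosome 17, 23600801 to 23601000) and 1 further in (23607051 to 23607350). Zscan18 had 3, of 200, 100 and 150 bp (chromosome 7, 12774501 to 12774700, 12797801 to 12797900 and 12798801 to 12798950), none on a wild-type peak. Zscan22 had 1 of 250 bp (chromosome 7, 12907801 to 12908050) just past its 1100 bp wild-type peak. That of Zscan29 (chromosome 2, 121170901 to 121171100) lay inside its 1300 bp wild-type peak. Zkscan1, whose locus also gives a circular RNA, had 1 of 200 bp (chromosome 5, 138100551 to 138100750), all of it under a RIP peak.

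Knockout peaks without a wild-type peak anywhere in the gene were seen in Zbtb20 (chromosome 16, 42955501 to 42955750), in Zbtb8os (chromosome 4, 129335951 to 129336200 and 129340651 to 129340850) and in 2 copies of Zscan4, the marker of the rare 2-cell-like state of embryonic stem cells. Zscan4c had a 200 bp knockout peak across its start site (chromosome 7, 11005701 to 11005900), and Zscan4d had peaks of 150 bp across its start site (11166051 to 11166200) and of 200 bp further in (11165301 to 11165500). Zscan4f had no knockout peak and wild-type peaks of 100 and 150 bp near its 3' end (11401451 to 11401550 and 11402101 to 11402250). No copy had a RIP peak. The start regions of these copies are near-identical (95.3 to 99.3% between pairs of the 4 copies after an ungapped shift of up to 34 bases), so which copy the reads came from is uncertain. Tcstv1, Tcstv3 and Usp17la, the other markers of the 2-cell-like state that were counted, had no peak in any list.

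Knockout peaks lay more often at the 5' end of these genes and wild-type peaks more often in the 3' part. Strand could be taken for 56 of the 68 genes. Among the 28 knockout peaks in these, 14 (50%, 30.6 to 69.4%) had their midpoint in the first 20% of the span, against 8 of 103 wild-type peaks (7.77%, 3.41 to 14.7%). The last 20% held 7 knockout peaks (25%, 10.7 to 44.9%) and 45 wild-type peaks (43.7%, 33.9 to 53.8%). The same contrast held over all protein-coding genes, with 51.7% and 12.3% in the first and 16.9% and 57.5% in the last 20%, so it is not particular to the BTB and SCAN genes. Their wild-type peaks in the last 20% had an interval that ends below the share of all genes. That interval treats peaks of the same gene as independent, such as the 4 of Zbtb38 among the 45, and can be too narrow. Those 4 peaks raise the share of the 68 genes. The median position of wild-type peaks was 75.4% of the span against 86% over all protein-coding genes. The median was 71.2% for BTB and 80.6% for SCAN genes. Within 200 bp of the 5' end lay 6 knockout peaks, in Zbtb7b (123 bp from the span end), Zbtb21 (127 bp), Zscan4c (55 bp), Zscan4d (23 bp), Zscan10 (74 bp) and Zscan29 (148 bp), and 1 wild-type peak, in Zbtb21. The 6 are 21.4% of the knockout peaks, against 28.8% over all protein-coding genes. Within 1000 bp of a 3' end lay no knockout peak and 18 wild-type peaks (17.5%), against 4.65% of knockout and 22.3% of wild-type peaks over all protein-coding genes, so that contrast too is the general one.

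**Figure D4:**
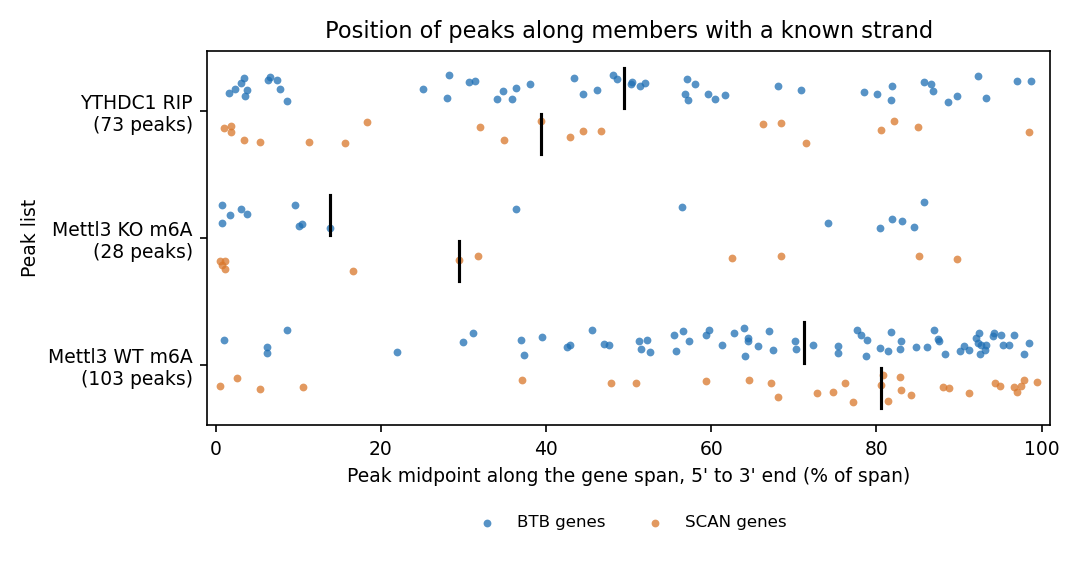
Position of each peak midpoint along the gene span from the 5' to the 3' end (percent of span), for the 56 genes with a known strand. Points are peaks, in the rows of the YTHDC1 RIP (73 peaks), Mettl3-KO m6A (28) and Mettl3-WT m6A (103) lists, with vertical scatter for legibility only, and black bars are the medians of the BTB and SCAN genes in each list. Knockout peaks crowd at the 5' end, with medians of 13.9% in BTB and 29.4% in SCAN genes, and wild-type peaks in the 3' part.

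RefSeq start regions, 250 bases before to 50 bases after an annotated start site, were at hand for the same 56 genes (74 windows, build GRCm38.p6). A knockout peak reached into such a window in 9 of the 56 genes (16.1%), a wild-type peak in 2 (3.57%) and a RIP peak in 6 (10.7%), with 13%, 3.8% and 8.1% over the 17491 protein-coding genes that have a window. These shares are near those of all genes. The windows below show where the knockout peak of a gene meets its start, for 3 BTB genes, for Zscan10 and for the 2 Zscan4 copies. They run 5' to 3' on the gene's own strand, and capitals mark the bases inside a knockout m6A peak.
Zbtb21 (chr16:97962573-97962872, minus strand): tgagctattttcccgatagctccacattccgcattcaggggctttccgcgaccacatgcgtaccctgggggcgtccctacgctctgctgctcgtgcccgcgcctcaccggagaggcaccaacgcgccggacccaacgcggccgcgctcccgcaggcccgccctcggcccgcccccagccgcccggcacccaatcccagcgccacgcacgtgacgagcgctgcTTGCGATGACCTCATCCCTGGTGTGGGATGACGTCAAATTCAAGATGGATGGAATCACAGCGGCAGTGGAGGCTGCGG
Zbtb44 (chr9:31030394-31030693, plus strand): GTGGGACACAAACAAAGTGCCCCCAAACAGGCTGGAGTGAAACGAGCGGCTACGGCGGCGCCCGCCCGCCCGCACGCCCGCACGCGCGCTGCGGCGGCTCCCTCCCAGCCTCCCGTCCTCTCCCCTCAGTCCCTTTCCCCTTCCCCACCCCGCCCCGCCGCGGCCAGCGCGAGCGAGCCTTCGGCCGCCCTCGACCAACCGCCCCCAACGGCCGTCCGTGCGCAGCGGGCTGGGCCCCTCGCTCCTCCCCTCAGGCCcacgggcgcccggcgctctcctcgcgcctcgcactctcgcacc
Zbtb45 (chr7:13009803-13010102, minus strand): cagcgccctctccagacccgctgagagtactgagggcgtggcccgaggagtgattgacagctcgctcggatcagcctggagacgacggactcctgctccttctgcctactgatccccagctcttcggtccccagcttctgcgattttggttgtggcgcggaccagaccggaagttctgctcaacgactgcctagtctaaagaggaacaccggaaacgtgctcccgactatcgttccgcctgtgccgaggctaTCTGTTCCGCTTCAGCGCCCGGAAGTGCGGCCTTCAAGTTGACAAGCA
Zscan10 (chr17:23600576-23600875, plus strand): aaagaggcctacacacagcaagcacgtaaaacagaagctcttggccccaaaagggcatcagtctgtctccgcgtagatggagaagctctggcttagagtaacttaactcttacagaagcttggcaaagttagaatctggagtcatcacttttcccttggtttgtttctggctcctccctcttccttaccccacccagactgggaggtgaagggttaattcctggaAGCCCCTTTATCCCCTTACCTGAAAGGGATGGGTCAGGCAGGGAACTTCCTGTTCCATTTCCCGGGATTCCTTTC
Zscan4c (chr7:11005495-11005794, plus strand): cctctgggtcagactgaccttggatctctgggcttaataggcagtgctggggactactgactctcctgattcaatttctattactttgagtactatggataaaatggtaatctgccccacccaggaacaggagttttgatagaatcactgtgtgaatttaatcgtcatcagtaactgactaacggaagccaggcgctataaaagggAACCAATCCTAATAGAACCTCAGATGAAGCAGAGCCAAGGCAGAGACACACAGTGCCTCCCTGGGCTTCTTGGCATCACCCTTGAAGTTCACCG
Zscan4d (chr7:11166099-11166398, minus strand): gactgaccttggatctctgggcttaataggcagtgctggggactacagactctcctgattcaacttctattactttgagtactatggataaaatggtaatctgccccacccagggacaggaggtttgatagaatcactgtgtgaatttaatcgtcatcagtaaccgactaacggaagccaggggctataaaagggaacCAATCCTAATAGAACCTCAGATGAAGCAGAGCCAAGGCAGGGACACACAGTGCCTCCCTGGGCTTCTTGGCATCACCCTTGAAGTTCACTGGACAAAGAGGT
The peaks enter the windows from the transcribed side in Zbtb21, Zbtb45, Zscan10 and both Zscan4 copies, covering 78, 48, 75, 94 and 102 of the 300 bases. In Zbtb44 the peak covered 257 bases and reached over the whole upstream part, since the span of that gene starts upstream of the start site shown. The Zscan4c and Zscan4d windows were equal at 281 of 289 bases after a shift of 11 bases. The sequence GGACT, a common form of the m6A consensus, was searched on the gene's strand and, as AGTCC, on the other strand. It stood on the gene's strand in 19 of the 74 windows (25.7%) and in 26.1% of all 32851 windows, and on either strand in 42 (56.8%) and in 45.5%. Of the 9 windows met by a knockout peak 4 held it on the gene's strand, those of Zbtb45, Zscan29, Zscan4c and Zscan4d. In these windows no match on the gene's strand lay among the bases inside the knockout peak. This includes the 1 of the 2 matches in the Zscan29 window that stood after the start site. GC content had a median of 63.3% in the BTB and 50.3% in the SCAN windows, and 52.7% in all windows. CpG pairs had a median of 25 in the BTB and 11 in the SCAN windows, and 7 in all windows.

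YTHDC1 RIP peaks in the 68 genes numbered 83, 56 in BTB and 27 in SCAN genes, with a median width of 200 bp. Unlike the m6A peaks they were spread along the genes. Of 73 peaks in genes with a strand, 19 lay in the first 20% (26%, 16.5 to 37.6%) and 16 in the last 20% (21.9%, 13.1 to 33.1%), close to the 28.4% and 23.2% of all protein-coding genes. None of the 83 RIP peaks had its midpoint within 200 bp of a span end, which allows a share of up to 4.35% (exact 95% interval), against 6.01% over all protein-coding genes. Zbtb20 had the most, 10, the widest of 6541 bp (chromosome 16, 43136716 to 43143256) and 1637 bp (43150189 to 43151825) inside its 758704 bp span. These were the only RIP peaks of at least 1000 bp in the 68 genes. Zbtb44 had 7, between 78 and 244 bp wide, and Zbtb7a (116 to 200 bp), Zbtb46 (197 to 200 bp) and Zbtb8os (200 to 211 bp) had 4 each. Those of Zbtb46 include 2 that also lie in the spans of Zgpat and Lime1. In the SCAN group Zkscan1 (200 to 305 bp), Zscan18 (238 to 283 bp), Zscan21 (61 to 228 bp) and Zscan26 (81 to 258 bp) had 3 each. A RIP peak without any wild-type m6A peak in the gene was found in 5 of the 68 genes (7.35%, 2.43 to 16.3%, with 19.7% over all protein-coding genes), Zbtb4, Zbtb7c, Zbtb8os, Zbtb20 and Zkscan16.

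YTHDC1 RIP peaks overlapped the m6A peaks of several BTB and SCAN genes. RNA was neither digested nor fragmented before the YTHDC1 pull-down, so a RIP peak need not mark where YTHDC1 bound within an RNA. The m6A lists came from polyA RNA, and the RIP list from 1 RIP with a total RNA input. Both a RIP and a wild-type m6A peak were found in 34 of the 68 genes (50%, with 22.6% over all protein-coding genes), and in 17 of these the peaks overlapped by at least 1 bp. That is 25% of the 68 genes (15.3 to 37%), with 6.52% over all protein-coding genes, 11 of 41 BTB (26.8%, 14.2 to 42.9%) and 6 of 27 SCAN genes (22.2%, 8.62 to 42.3%). Among the 397 Zfp genes, 45.8% (40.9 to 50.9%) had both a RIP and a wild-type peak and 16.4% (12.9 to 20.4%) an overlapping pair, with intervals that overlap those of the 68 genes. Counted by peaks, 21 of 122 wild-type peaks (17.2%, 11 to 25.1%) touched a RIP peak, against 13.1% in all protein-coding genes. From the side of YTHDC1, 22 of 83 RIP peaks (26.5%, 17.4 to 37.3%) touched a wild-type m6A peak, against 7.32% in all protein-coding genes. Wild-type peaks also took up more of the spans, 3.08% in the 68 genes against 0.583% over all protein-coding genes. The part of this coverage in the contrast was not tested. Wild-type peaks that touched a RIP peak had a median width of 750 bp and the others of 500 bp, with 450 and 400 bp over all protein-coding genes. A wider peak meets another more easily, so this order alone does not bear on YTHDC1 binding. With at least 50% of the m6A peak required to lie in the RIP peak, 3 of the 122 remained (2.46%, with 4.56% over all protein-coding genes). RIP peaks had a median width of 200 bp, so few could cover that much of a wide m6A peak. With at least 50% of the shorter peak required, 18 remained (14.8%, with 10.3% over all protein-coding genes).

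The widest such pair lay in Zbtb22, whose 2150 bp m6A peak contained a RIP peak of 341 bp (chromosome 17, 33917520 to 33917860) and another of 252 bp (33918573 to 33918824). In Zbtb9 the m6A peaks of 1750 and 400 bp each held a RIP peak of 200 bp (26973838 to 26974037 and 26975901 to 26976100). The 1650 bp peak of Zbtb18 held 1 of 200 bp (chromosome 1, 177447335 to 177447534), and the 1500 bp peak of Zbtb14 held 1 of 391 bp (chromosome 17, 69388140 to 69388530). The 1250 bp peak of Zbtb5 held 1 of 211 bp (chromosome 4, 44994134 to 44994344). In Zscan29 the 1300 bp wild-type peak, the 200 bp knockout peak and a 397 bp RIP peak all lay at the 5' end (chromosome 2, 121170709 to 121171105 for RIP), and the midpoints of the knockout and RIP peaks also lie in the span of Tubgcp4. Zscan18 had a 261 bp RIP peak in its 1150 bp m6A peak (chromosome 7, 12810735 to 12810995), both shared with the span of Zfp329. Zkscan6 had 1 of 247 bp in its 950 bp m6A peak (chromosome 11, 65828775 to 65829021). Zbtb8a had 1 of 321 bp in an 800 bp m6A peak (chromosome 4, 129354210 to 129354530), shared with the span of a non-coding gene, and Zbtb7a had 1 of 200 bp in each of its m6A peaks of 300 and 800 bp that lie side by side (chromosome 10, 81143973 to 81144172 and 81144839 to 81145038). Zbtb1, needed for lymphocyte development, had all 3 kinds of peak together, with a knockout peak of 200 bp (chromosome 12, 76385151 to 76385350), a wild-type peak of 550 bp and a RIP peak of 386 bp overlapping each other (76385245 to 76385630 for RIP). All of these also lie in the span of the non-coding gene 4930426I24Rik. Knockout peaks touched a RIP peak in 5 genes (7.35%, with 5.64% over all protein-coding genes), which were Zbtb1, Zbtb8os, Zscan18, Zscan29 and Zkscan1.

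BTB and SCAN genes with other symbols were counted in the same way. Of 8 further BTB zinc finger genes, 4 had a knockout peak (50%, 15.7 to 84.3%), 6 a wild-type peak (75%, 34.9 to 96.8%) and 5 a RIP peak (62.5%, 24.5 to 91.5%). Hic2 had 1 knockout peak of 200 bp and 4 wild-type peaks with a widest of 2100 bp, and Patz1 had 1 knockout peak of 400 bp and 4 wild-type peaks with a widest of 1350 bp. Bcl6 and Bcl6b, the first the master factor of germinal centre B cells, had no peak in any list. Of 18 further SCAN names asked for, 2 were members under another symbol, 2 had no match, and 14 were added. Among these, 4 had a knockout peak (28.6%, 8.39 to 58.1%), 11 a wild-type peak (78.6%, 49.2 to 95.3%) and 5 a RIP peak (35.7%, 12.8 to 64.9%). Peg3, an imprinted gene, had 1 knockout peak of 150 bp and 2 wild-type peaks with a widest of 850 bp. Zfp397 had 3 wild-type peaks, those it shares with Zscan30. In this list 1 gene, Zfp446, had a wild-type peak of 1000 bp, and none had a wider one.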

How the data were processed

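Per the labels' protocols, RNA was neither digested nor fragmented before Halo-tagged YTHDC1 was pulled down. The submitters' processing notes list, without roles, MACS2 2.1.2, SAMtools 1.9, HISAT2 2.2.0, Trim Galore 0.6.4, STAR 2.7 and bcl2fastq, and the build mm10. Samples were grouped by title, and no source says if they are separate cultures. The authors deposited 3 peak lists with chromosome, start and end, and no other value. The sources used here do not state the peak threshold, the m6A antibody or any pooling of replicates. All m6A peaks and 0.513% of the RIP peaks start and end on a 50 bp grid, and list sizes are not amounts of m6A or binding.

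Peaks were tied to RefSeq gene spans of GRCm38.p6 by midpoint, with a peak counted for every protein-coding span it lay in. Spans carry no exons, so exons and untranslated regions were not told apart. Strand came from the RefSeq start regions. Of the 68 genes, 25 overlap another coding or long non-coding span. Lists were compared by overlaps of at least 1 bp with Python 3.11.15, pandas 2.3.3 and SciPy 1.17.1, and the assignment was tested on simulated data. Protein sequences were not used here. The genes and lists were chosen with earlier results of these data known. Every member was counted. Coordinates were given by fixed rules for the members with the widest wild-type peaks, knockout peaks, most RIP peaks (past ties, those with 3 or more) and m6A peaks on RIP peaks, and for 18 members chosen by name. The overlap, width, span, membership and distance settings tried are given in the closing section. A partner gene of the lists is not reported here.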

Additional observations from a re-analysis of the deposited data

How the results depend on the processing

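Of 59 alternative values for 16 results, 47 stayed within the 95% interval of the reported value and 12 moved out of it. With peaks above each list's median width alone, the share of genes with a RIP peak was 29.3% for BTB and 37% for SCAN genes, and that with a knockout peak 14.6% and 3.7%. The shares with a wild-type peak stayed within their intervals under every setting tried, at 78 to 87.5% for BTB and 59.3 to 82.6% for SCAN genes. As a median over genes, the density per 100 kb was 1.45 RIP, 0 knockout and 9.45 wild-type peaks in BTB genes and 0 knockout peaks in SCAN genes. Without Zbtb20, a setting added after seeing the data, it was 5.98 wild-type peaks in BTB genes. The share of wild-type peaks on a RIP peak was 2.46% when at least 50% of the m6A peak had to be covered, with 4.56% over all protein-coding genes. The share of wild-type peaks near a span end was 4.1% within 200 bp, 0% within 100 bp and 9.84% within 500 bp. Leaving out Zbtb8os, also added later, changed no share beyond its interval. The planned count of zinc fingers in the proteins was not run, because no protein table was used here. No paired analysis was possible because each genotype has 1 peak list and no values per replicate, and for the same reason no replicate could be left out.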

Other observations

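A set of 5 SCAN genes lies within 1 stretch of chromosome 13, between 21362820 and 21531114. Zscan12, Zkscan3 and Zscan26 each had wild-type m6A and RIP peaks (2 and 2, 2 and 2, and 3 and 3), Zkscan8 had 1 wild-type peak of 1000 bp and no RIP peak, and Zkscan4 had no peak in any list. None had a knockout peak. Also near each other, on chromosome 5, Zkscan1 and Zscan21 had 3 RIP peaks each, with 1 and 2 wild-type m6A peaks.

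The BTB proteins of the Klhl and Kbtbd families, adaptors of CUL3 ubiquitin ligases without zinc fingers, had a knockout peak in 4 of 46 genes (8.7%, 2.42 to 20.8%), a wild-type peak in 22 (47.8%, 32.9 to 63.1%) and a RIP peak in 25 (54.3%, 39 to 69.1%). The wild-type interval ends below the lower bound of the 41 BTB genes named Zbtb (70.8%). Klhl11 with 1650 bp and Klhl9 with 1600 bp had the widest wild-type peaks. Among partners of BTB and KRAB proteins, Ncor1, which encodes a corepressor, had 7 RIP, 4 knockout and 3 wild-type peaks. Trim28 had 2 RIP peaks and no m6A peak.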
